A study of Mus musculus with 4 samples.

Results

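Epithelial-mesenchymal transition (EMT) is the process by which cells of an epithelial sheet lose their junctions and become migratory. The ZEB, SNAIL and TWIST transcription factors are its best known drivers, and their 7 mouse genes (Zeb1, Zeb2, Snai1, Snai2, Snai3, Twist1 and Twist2) were followed here in somitic gastruloids from which the ZEB2 protein was to be removed. The genes were taken by symbol, and all 7 stand among the 24831 genes listed in the count tables. ZEB and SNAIL proteins are zinc finger repressors that bind E-boxes in the promoters of epithelial genes such as Cdh1, and TWIST proteins are basic helix-loop-helix (bHLH) factors that bind E-boxes as dimers. In the embryo these factors act in gastrulating mesoderm, in somites and their derivatives, in the neural crest and, for ZEB2, in the neural tube.

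Somitic gastruloids are aggregates of mouse embryonic stem cells that elongate in culture and form presomitic tissue, somites and neural tissue. All 4 libraries came from the E14 triple reporter line with the endogenous Zeb2 gene fused to HA and the FKBP12 F36V degron, so the control gastruloids carried the tag as well; the labels do not say whether the line is 1 clone. Aggregates began as 300 sorted cells per well, were given 3 μM of the WNT pathway activator CHIR99021 starting at 48 h, and were placed in 10% Matrigel at 96 h. The 2 libraries of the dTAG13 group came from gastruloids given 100 nM dTAG-13, a small molecule that directs degron-tagged proteins to degradation, at 72 h and 96 h. The 2 libraries of the reference condition are labelled untreated, while DMSO is the control that the growth protocol names. Each group has a replicate 1 and a replicate 2. Whether these were independent cultures is not in the labels, so each p-value reflects the scatter of these libraries alone, and that scatter may be technical. Whole gastruloids were sequenced, so fewer cells of a type and less RNA per cell cannot be told apart.

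Between 11491330 and 12716172 reads per library were counted in genes. Reads outside genes made up 25.3% and 29.2% in the dTAG-13 libraries and 35.7% and 24.1% in the untreated libraries. Of the marker genes of the labelled tissue, 8 of 8 for presomitic mesoderm and 7 of 8 for somite had enough counts to be tested. Levels below are in CPM, the reads of a gene scaled to a fixed library total, after TMM scaling, which corrects for library size and composition. The comparison of dTAG-13 with untreated used edgeR's quasi-likelihood test over 13602 genes, with p-values adjusted over all of them and a threshold of 0.05. It called 0 genes (0%) in either direction, with 479 genes (3.52%) at an unadjusted p under 0.05, and DESeq2 called 40 of 11756 genes with an adjusted p (0.221% higher and 0.119% lower).

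With dTAG-13, none of the 7 EMT factor genes passed the test by either tool. Zeb1, Twist1 and Twist2 were lower than in untreated gastruloids within both replicate numbers, while Zeb2, Snai2 and Snai3 differed in direction between the numbers and Snai1 hardly differed in either. All but Snai3 had enough counts to be tested, which leaves 6. DESeq2 gave no adjusted p for Twist2.

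Zeb2, the tagged gene, lies on the minus strand of chromosome 2 (44983512 to 45117442, GRCm38.p6), and its longest coding transcript has 11 exons. It had 103 and 108 CPM in the dTAG-13 libraries, against 98.3 and 164 CPM in the untreated libraries (replicates 1 and 2 in that order). Both dTAG-13 values therefore fell between the 2 untreated values, and the groups overlapped. The fitted log2 fold change was -0.32 ± 0.25 (SE; 95% interval -0.95 to 0.32; adjusted p = 1.00 by edgeR), and without untreated replicate 2 it was 0.10. Within number 1 the log2 CPM of Zeb2 differed by 0.061, dTAG-13 minus untreated, and within number 2 by -0.60. The degron acts on the protein, which RNA libraries do not measure, so the level of this mRNA does not check whether ZEB2 was removed. The antisense gene Zeb2os overlaps Zeb2 on the opposite strand and was not analysed here; without a stated strand setting its reads cannot be told from those of Zeb2.

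Zeb1, the paralog of Zeb2 and likewise a repressor of epithelial genes, lies on chromosome 18 (5591327 to 5775468, plus strand, 8 exons). It had 59.9 and 26.1 CPM with dTAG-13, against 84.6 and 56.0 CPM in untreated gastruloids. In each number the dTAG-13 library was the lower one, yet dTAG-13 replicate 1 stayed above untreated replicate 2, so the groups overlapped. The group means were 43.0 ± 23.9 CPM with dTAG-13 and 70.3 ± 20.2 CPM in untreated libraries (SD, n = 2 each). The log2 fold change of -0.71 ± 0.48 (95% interval -2.02 to 0.60; adjusted p = 1.00 by edgeR) did not pass. It was -1.43 without dTAG-13 replicate 1, and it was -0.25 without dTAG-13 replicate 2 and -0.39 without untreated replicate 1. Zeb1 passed the threshold where the replicate number entered the fit as a block, with a log2 fold change of -0.78 (adjusted p = 2.04e-06) in edgeR and -0.80 (adjusted p = 0.0262) in DESeq2. In those fits 1.77% of all genes were called lower and 2.9% higher by edgeR, and 0.375% lower and 0.928% higher by DESeq2, and no other of the 7 genes was called. The labels do not say that same-numbered libraries belong together.

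Both ZEB genes together, which share their target sites, had 162 and 134 CPM with dTAG-13, against 183 and 220 CPM in untreated libraries. For this sum the groups did not overlap. The exact two-sided permutation p was 0.333, the smallest that 2 against 2 libraries allow. Zeb2 supplied 63.1% of the ZEB reads in dTAG-13 replicate 1 (95% exact binomial interval 60.9% to 65.3%) and 80.6% in dTAG-13 replicate 2 (78.5% to 82.5%). Its share was 53.8% in untreated replicate 1 (51.7% to 55.8%) and 74.6% in untreated replicate 2 (72.8% to 76.3%). The share of Zeb2 was thus higher with dTAG-13 within each number, and higher in replicate 2 than in replicate 1 within each group (exact permutation p = 0.667 between the groups). These intervals hold counting error alone, because the reads carry no molecular identifiers and need not be independent molecules.

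**Figure D1:**
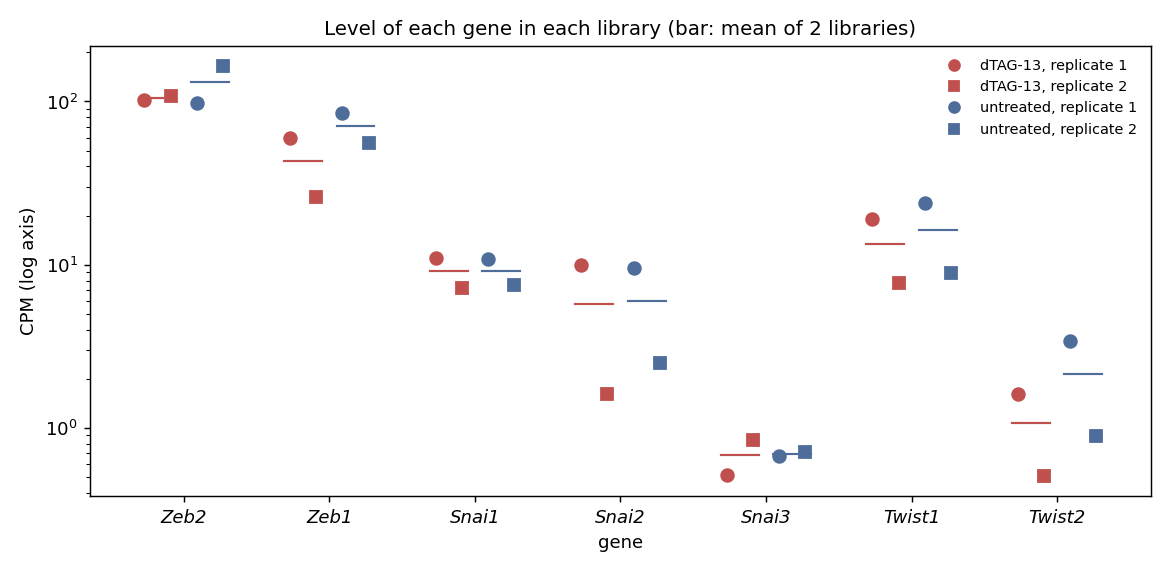
CPM of the 7 EMT factor genes on a log axis, with circles for replicate 1, squares for replicate 2, red for dTAG-13, blue for untreated and a bar at each group's mean of 2 libraries. Zeb2 had 103 and 108 CPM with dTAG-13 and 98.3 and 164 CPM in untreated libraries. All 7 genes separate by replicate rather than by group, though by little for Zeb1, Zeb2 and Snai3.

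Snai1, the SNAIL repressor first expressed at gastrulation and the direct repressor of Cdh1, is a short gene on chromosome 2 (167538195 to 167542814, plus strand, 3 exons). It had 11 and 7.22 CPM with dTAG-13, against 10.9 and 7.47 CPM in untreated gastruloids. Same-numbered libraries were nearly level, and the groups overlapped. The log2 fold change was -0.0098 ± 0.34 (adjusted p = 1.00 by edgeR), and its 95% interval, -0.83 to 0.81, leaves differences up to that size undetected. The sign changed to 0.24 without dTAG-13 replicate 2 and to 0.27 without untreated replicate 1. SNAIL proteins bind the E-box CAGGTG, and that motif stands once in the Snai1 promoter of GRCm38.p6 in RefSeq. Its window chr2:167537945-167538244 (plus strand, 250 bases before to 50 after the start) is shown with the E-box in capitals, because Snai1 is the only one of the 4 EMT factor genes with a window in that table to hold the motif; the first base of the match lies at -126 from the start.
Snai1 promoter: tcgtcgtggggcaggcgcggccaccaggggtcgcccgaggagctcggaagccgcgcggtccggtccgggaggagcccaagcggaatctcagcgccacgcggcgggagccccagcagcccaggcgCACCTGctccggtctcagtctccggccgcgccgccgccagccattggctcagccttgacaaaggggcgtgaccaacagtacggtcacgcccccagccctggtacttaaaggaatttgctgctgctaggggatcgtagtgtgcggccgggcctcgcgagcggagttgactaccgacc
The motif was read on both strands, as CAGGTG or CACCTG. It stood in 20.2% of 32851 mouse windows of the same length, and in 1 of 7 windows of the 4 EMT factor genes. The match in Snai1 is a match of letters and not a measured site.

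Snai2, known as Slug and as a factor of migrating neural crest and mesoderm, lies on chromosome 16 (14705852 to 14709395, plus strand, 3 exons). It had 9.90 and 1.61 CPM with dTAG-13, against 9.49 and 2.49 CPM in untreated libraries. Replicate 1 was high and replicate 2 low in both groups, so the groups overlapped almost entirely. The log2 fold change was -0.066 ± 1.09 (95% interval -3.06 to 2.93; adjusted p = 1.00 by edgeR), and its sign went with the library left out. It was 0.69 without dTAG-13 replicate 2 and 1.19 without untreated replicate 1, but -1.89 when dTAG-13 replicate 1 was left out and -0.72 when untreated replicate 2 was. Within number 2, where Snai2 was counted 19 times with dTAG-13 and 28 times in the untreated library, the log2 difference was -0.58. The counting intervals of those counts, 11.4 to 29.7 and 18.6 to 40.5, overlap.

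Snai3, the least studied SNAIL gene and known in muscle and lymphoid cells, lies on chromosome 8 (122454204 to 122460809, minus strand). It was counted 6 and 10 times with dTAG-13, against 9 and 8 times in untreated libraries. These counts were too low for the test. The ratio of the summed counts, 16 against 17, was 0.982 per effective library size, with a 95% exact Poisson interval of 0.464 to 2.07 that covers counting error only. The SNAIL sum over its 3 genes was 21.4 and 9.68 CPM with dTAG-13, against 21.02 and 10.7 CPM in untreated libraries (exact permutation p = 1). Snai1 supplied 52.7% and 81.7% of the joint Snai1 and Snai2 reads with dTAG-13, against 53.3% and 75% in untreated libraries.

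Twist1, a bHLH factor of cranial mesenchyme, somites and limb buds, lies on chromosome 12 (33957671 to 33959831, plus strand, 2 exons). It had 19.0 and 7.73 CPM with dTAG-13, against 23.9 and 8.90 CPM in untreated gastruloids. The dTAG-13 library was the lower one within each number, by log2 differences of -0.33 and -0.20, but replicate 1 was above replicate 2 in both groups and the groups overlapped. The log2 fold change was -0.30 ± 0.67 (95% interval -2.09 to 1.50; adjusted p = 1.00 by edgeR). It turned to 0.19 without dTAG-13 replicate 2 and to 0.57 without untreated replicate 1, and was -1.09 without dTAG-13 replicate 1 and -0.84 without untreated replicate 2.

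Twist2, also called Dermo1 and known in dermis, lies on chromosome 1 (91801461 to 91848034, plus strand). It was counted 19 and 6 times with dTAG-13, against 45 and 10 times in untreated libraries, or 1.62 and 0.510 CPM against 3.39 and 0.890 CPM. Within number 1 the counting intervals of dTAG-13 (11.4 to 29.7) and untreated (32.8 to 60.2) are apart, and within number 2 they overlap (2.20 to 13.1 with dTAG-13 and 4.80 to 18.4 untreated). Replicate 1 was the higher one in each group, so the groups overlapped. The log2 fold change was -1.01 ± 0.83 (95% interval -3.05 to 1.02; adjusted p = 1.00 by edgeR), and its sign turned to 0.24 without untreated replicate 1. It was -0.44 without dTAG-13 replicate 2, -2.06 without dTAG-13 replicate 1 and -1.66 without untreated replicate 2. Twist1 made up 92.1% and 93.8% of TWIST reads with dTAG-13, against 87.6% and 90.9% in untreated libraries; the groups did not overlap, and the exact permutation p of 0.333 is the smallest possible.

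Across the 6 genes tested, the median log2 fold change was -0.31, where the median over all 13602 genes was 0.0040 and the quartiles were -0.13 and 0.13. Leaving out dTAG-13 replicate 1 took that median to -1.09, and leaving out untreated replicate 1 took it to 0.24; the values were -0.032 without dTAG-13 replicate 2 and -0.72 without untreated replicate 2. Of the 6, 3 were below untreated in both numbers, where 23.9% of all genes tested were, and 0 were above it in both, where 27.7% were. None of the 6 had both dTAG-13 libraries below both untreated ones, which was so for 11.9% of all genes, and none had both above, which was so for 14.4%. The 7 genes summed to 204 and 152 CPM with dTAG-13 and to 231 and 240.4 CPM in untreated libraries (exact permutation p = 0.333). Zeb2 and Zeb1 supply most of these reads.

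**Figure D2:**
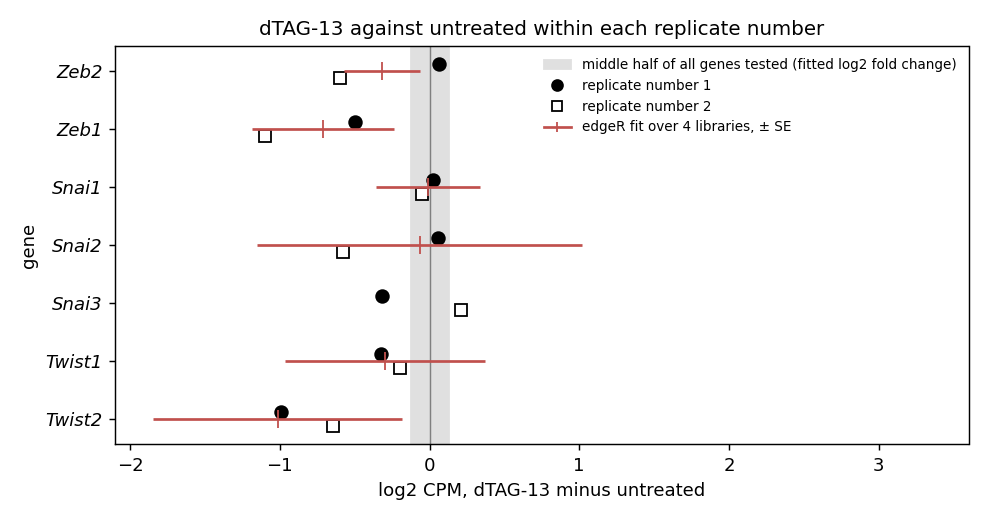
Difference in log2 CPM, dTAG-13 minus untreated, for replicate number 1 (filled circles) and number 2 (open squares), with the edgeR log2 fold change over 4 libraries and its SE in red for the 6 genes tested. Zeb1, Twist1 and Twist2 lie left of 0 in both numbers, and the grey band spans the quartiles of fitted log2 fold changes over all genes tested, -0.13 to 0.13.

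For Snai1, Snai2, Twist1 and Twist2 both fold differences between replicate 2 and replicate 1 were larger than both between the groups. For Zeb1 and Zeb2 the 2 kinds of difference overlapped in size. Their ratios of dTAG-13 to untreated in numbers 1 and 2 were 0.708 and 0.466 for Zeb1 and 1.04 and 0.659 for Zeb2. Snai2 was 6.13-fold lower in replicate 2 than in replicate 1 with dTAG-13 and 3.81-fold lower in untreated gastruloids. Twist1 was 2.46-fold lower in replicate 2 with dTAG-13 and 2.68-fold lower in untreated gastruloids, and Twist2 3.18-fold and 3.81-fold lower. These 3 of the 6 tested genes were lower by at least 2-fold in replicate 2 in both groups, where 2.96% of all genes tested were; the 2-fold limit was chosen after these values were seen. Zeb1 was lower in replicate 2 by 2.30-fold with dTAG-13 and by 1.51-fold in untreated gastruloids, and Snai1 by 1.52-fold and 1.45-fold. Zeb2 was the reverse, 1.05-fold higher in replicate 2 with dTAG-13 and 1.67-fold higher in untreated gastruloids. What the replicate number marks is not in the labels.

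**Figure D3:**
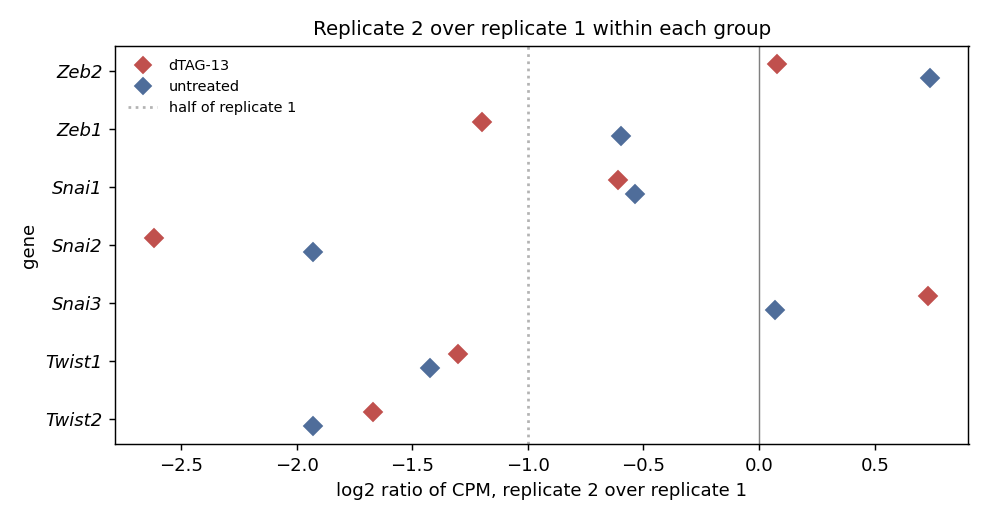
Log2 ratio of CPM in replicate 2 over replicate 1, with dTAG-13 in red and untreated in blue, for the 7 genes. Snai2, Twist1 and Twist2 lie left of the dotted line at -1 in both groups, while Zeb2 and Snai3 lie right of 0.

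Markers of several cell types moved with the replicate number as these genes did. The summed level of 8 endothelial markers was 162 and 65.5 CPM with dTAG-13 and 190.4 and 57.0 CPM in untreated libraries, and that of 8 lateral plate and heart markers 114 and 22.9 CPM against 82.6 and 13.8 CPM. The 24 mesenchymal genes listed for EMT summed to 3003 and 1680 CPM with dTAG-13 and to 2578 and 1760 CPM in untreated libraries. Each of these sums was lower in replicate 2 in both groups, as were Snai2, Twist1, Twist2 and Zeb1. Neural tube markers, 8 genes, summed to 140 and 188 CPM with dTAG-13 and to 202 and 359 CPM in untreated libraries, highest in untreated replicate 2 as Zeb2 was. These sums did not overlap between the groups. In both numbers 8 of the 8 markers were below untreated, where 23.9% of all genes tested were. Their median log2 fold change was -1.998 and 0 passed edgeR's threshold. DESeq2 called 2 of them lower and edgeR with the replicate block 7, where 0.119% and 1.77% of all genes were called lower. Neural crest markers summed to 128 and 133 CPM with dTAG-13 and to 111 and 90.1 CPM in untreated libraries, but the higher sum with dTAG-13 rests on Erbb3 (59.1 and 86.4 CPM with dTAG-13, 28.2 and 35.1 CPM untreated), and the list's median log2 fold change was -0.31. Of its defining genes, Foxd3 was at 0 in every library and Sox10 had 3 to 6 counts. Of the 7 neural crest markers tested, 3 were above untreated in both numbers and 3 below it. Over all genes tested the shares were 27.7% and 23.9%. Tfap2a had 11.9 and 11.4 CPM with dTAG-13 and 4.75 and 1.96 CPM untreated. Ednrb had 4.95 and 5.1 CPM against 9.94 and 20.5 CPM. DESeq2 called 1 higher, and 0.221% of all genes. With the replicate block edgeR called 2 higher and 1 lower, and 2.9% and 1.77% of all genes. The part of these cell types in the levels of the EMT factors was not tested.

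Genes whose 4 values ran most like those of each factor were found by the root mean square difference of centred log2 CPM over the 4 libraries, among 12437 or 12438 other genes. Zeb2 lay closest to Wnt3a, a WNT ligand of the tail bud and dorsal neural tube (0.028), and to the glycosyltransferase gene Gcnt4 (0.034). Zeb1 lay closest to Fat3, an atypical cadherin (0.104), and Rbm20, a splicing factor gene (0.119). Snai2 lay closest to Prkg1, a cGMP-dependent kinase gene (0.051), and Fli1, an ETS factor of endothelium and blood (0.072). For Snai1 the closest were Ciart (0.014) and 1700109H08Rik (0.019), for Twist1 A2m (0.035) and Crispld1 (0.053), and for Twist2 Mss51 (0.11) and Ssc5d (0.12). The likeness is a description over 4 libraries: 205 genes lay within 0.1 of Snai1 and 42 within 0.1 of Zeb2.

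Per kilobase of its longest coding transcript, Zeb2 stood at 11.2 and 11.9 CPM with dTAG-13 and at 10.8 and 17.97 CPM in untreated libraries. On that scale Twist1 had 11.7 and 4.75 CPM per kb with dTAG-13 and 14.7 and 5.47 in untreated libraries, and Zeb1 10.3 and 4.49 with dTAG-13 and 14.6 and 9.65 in untreated libraries. The levels of Twist1 and Zeb1 overlapped in both groups. Snai1 followed with 6.79 and 4.45 CPM per kb with dTAG-13 and 6.69 and 4.61 in untreated libraries, and Snai2 with 4.90 and 0.798 against 4.70 and 1.23. Twist2 and Snai3 were at the low end, between 0.202 and 1.343 CPM per kb over all 4 libraries, and their order did not hold across libraries. No stretch longer than 23 bases was shared between the transcripts of 2 genes of the same family, so reads longer than that separate them where they match without error.

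The epithelial genes that ZEB and SNAIL proteins are known to repress were above untreated. Their list was chosen with earlier results of these data known, so the counts describe it and are no independent test. Of 30 listed genes, which encode junction, polarity and keratin proteins, 30 were tested and 30 were higher with dTAG-13 in both numbers, where 27.7% of all genes tested were. Their median log2 fold change was 1.09, with medians of 0.85 in number 1 and 1.35 in number 2. None passed edgeR's adjusted threshold, while DESeq2 called 6 higher, where it called 0.221% of all genes. The edgeR fit with the replicate block called 28 of the 30 higher, and 2.9% of all genes. The neural tube markers given above were lower beside this; the part of such shifts in tissue make-up was not tested. Jup, which encodes the junction protein plakoglobin, had 87.3 and 121 CPM with dTAG-13 and 45.3 and 43.9 CPM in untreated libraries (log2 fold change 1.22 ± 0.19; adjusted p = 0.760 by edgeR). Patj, which encodes a scaffold protein of apical polarity, had 90.3 and 97.7 CPM with dTAG-13 and 60.8 and 54.3 CPM in untreated libraries (0.71 ± 0.14; adjusted p = 0.774 by edgeR). For both the groups did not overlap, as may follow from their choice as the genes of smallest p. They overlapped for Cdh1, which encodes E-cadherin and had 302 and 619 CPM with dTAG-13 and 174 and 310.3 CPM in untreated libraries.

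E-boxes of the ZEB and SNAIL type are frequent in the promoters of these genes in the reference. RefSeq promoter windows were at hand for 30 of the 44 genes in the epithelial lists, 39 windows in all, some of them overlapping starts of 1 gene. CAGGTG or CACCTG stood in 27 of the 39 (69.2%), where 20.2% of 32851 mouse windows of the same length held it, and at least 2 matches in 15 (38.5%), against 2.88% of all windows. Patj and the polarity gene Crb3 are shown with E-boxes in capitals, Patj for its first window, which has 3 matches, and Crb3 because it has 4; both were chosen after the matches were seen. The other 2 windows of Patj and the window of Jup, the gene with the smallest p in the list, hold 0. The windows are chr4:98395576-98395875 and chr17:57061951-57062250, both on the plus strand of GRCm38.p6, 250 bases before to 50 after the start.
Patj promoter: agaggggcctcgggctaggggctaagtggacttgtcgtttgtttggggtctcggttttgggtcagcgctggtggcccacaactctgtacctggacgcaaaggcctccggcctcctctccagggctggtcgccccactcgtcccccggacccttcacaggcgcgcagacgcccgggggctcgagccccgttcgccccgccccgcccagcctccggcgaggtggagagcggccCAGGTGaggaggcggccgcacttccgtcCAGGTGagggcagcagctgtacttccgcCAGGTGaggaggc
Crb3 promoter: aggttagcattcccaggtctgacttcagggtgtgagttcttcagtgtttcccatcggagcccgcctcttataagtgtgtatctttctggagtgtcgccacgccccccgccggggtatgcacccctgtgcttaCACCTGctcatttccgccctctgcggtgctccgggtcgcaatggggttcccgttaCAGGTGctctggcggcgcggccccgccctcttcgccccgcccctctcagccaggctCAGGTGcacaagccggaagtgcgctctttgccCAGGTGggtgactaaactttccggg
Crb3 had 7.25 and 11.9 CPM with dTAG-13 and 5.12 and 4.54 CPM in untreated libraries (log2 fold change 0.98 ± 0.36; adjusted p = 1.00 by edgeR). Whether any of these sequences is bound was not measured here.

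Regulators that oppose ZEB and SNAIL genes in epithelia, among them the OVOL, GRHL and ELF transcription factors and the ESRP splicing regulators, mostly stood above untreated. Of 14 listed, likewise chosen with earlier results of these data known, 13 were tested. In both numbers 11 were above untreated and 0 below it, where 27.7% and 23.9% of all genes tested were. The median log2 fold change was 0.96 and 0 passed the threshold. With the block edgeR called 9 of the 13 higher, and 2.9% of all genes. Ovol2, which represses ZEB and SNAIL genes, was among the exceptions, with 2.39 and 3.31 CPM with dTAG-13 and 2.49 and 1.16 CPM in untreated libraries. Elf5, an ETS factor of trophoblast and gland epithelia, had 1.37 and 2.21 CPM with dTAG-13 and 0.075 and 0.356 CPM in untreated libraries. Elf3, an epithelial ETS factor, had 28.2 and 39.6 CPM with dTAG-13 and 18.2 and 20.6 CPM in untreated libraries (0.80 ± 0.22; adjusted p = 0.936 by edgeR). The groups did not overlap for either of these genes, which were named for their small p. Elf5 was barely counted in untreated libraries and reached the filter's minimum count of 10 with dTAG-13 only. For Elf5 the lack of overlap may therefore follow from the filter as well.

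MicroRNAs of the miR-200 family and miR-205 are known to repress ZEB1 and ZEB2 through sites in their 3′ ends. Their mature strands are given from RefSeq (GRCm38.p6) with the seed, bases 2 to 8, in capitals, since the letters that were counted are those that pair with the seed.
mmu-miR-141-3p: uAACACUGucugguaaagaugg
mmu-miR-200a-3p: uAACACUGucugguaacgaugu
mmu-miR-200b-3p: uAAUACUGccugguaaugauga
mmu-miR-200c-3p: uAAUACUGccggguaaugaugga
mmu-miR-429-3p: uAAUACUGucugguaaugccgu
mmu-miR-205-5p: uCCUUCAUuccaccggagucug
The first 2 share 1 seed and the next 3 another. Matches to those 2 seeds (CAGTGTT and CAGTATT) stood 9 times in the 3′ untranslated region of Zeb2 (4941 bases) and 9 times in that of Zeb1 (2401 bases), where 0.0233% of 12861 genes, 3 in all, had at least 9. The match to the miR-205 seed (ATGAAGG) stood 0 times in Zeb2 and 1 time in Zeb1, and 0 times in the other genes. For the miR-200 seeds Snai2 had 2 matches and Snai1 had 1, and Snai3, Twist1 and Twist2 had 0. The hairpin genes had 0 to 9 counts per library: Mir200a had 5 and 9 counts with dTAG-13 and 2 and 3 in untreated libraries, and Mir200c was at 0 in each. Total RNA libraries of this kind do not measure mature microRNAs, so their levels were not tested.

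Mesenchymal genes that accompany EMT, a list with cadherins, collagens and fibronectin, were more often below untreated than above it. Fn1, which encodes fibronectin, was above it in both numbers, with 1818 and 1024 CPM with dTAG-13 and 1309 and 955 CPM untreated. Of 24 listed, 21 were tested. In both numbers 13 were below untreated and 4 above it, where 23.9% and 27.7% of all genes tested were. The median log2 fold change was -0.22 and 0 passed the threshold. With the replicate block edgeR called 3 lower and 0 higher, and 1.77% and 2.9% of all genes. Cdh2, which encodes N-cadherin, had 221 and 143 CPM with dTAG-13 and 235 and 225 CPM in untreated libraries (-0.34 ± 0.22; adjusted p = 1.00 by edgeR).

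Among 22 other transcription factors of EMT, 18 were tested and 0 passed. In both numbers 7 were above untreated and 6 below it, where 27.7% and 23.9% of all genes tested were. Msx2, a homeobox target of BMP signalling, had 9.04 and 11.3 CPM with dTAG-13 and 2.26 and 1.16 CPM in untreated libraries (2.56 ± 0.43; adjusted p = 0.774 by edgeR). Sox9, a factor of cartilage and neural crest development, had 70.2 and 50.5 CPM with dTAG-13 and 39.6 and 29.5 CPM in untreated libraries (0.80 ± 0.22; adjusted p = 0.948 by edgeR). The groups did not overlap for either of these genes, which were likewise named for their small p.

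Of 14 bHLH partners and relatives of TWIST, 9 were tested. In both numbers 3 were above untreated and 4 below it, where 27.7% and 23.9% of all genes tested were. Tcf15, a relative of TWIST needed for somites to become epithelial, had 3.84 and 4.16 CPM with dTAG-13 and 9.64 and 9.97 CPM in untreated libraries (-1.29 ± 0.31; adjusted p = 0.790 by edgeR). Tcf4, which encodes an E protein partner of TWIST, had 191 and 167 CPM with dTAG-13 and 226 and 188 CPM in untreated libraries. The 4 Id genes, whose products block bHLH dimers, were all above untreated in both numbers, where 27.7% of all genes tested were. Their median log2 fold change was 0.61 and 0 passed the threshold. With the replicate block edgeR called 3 of them higher, and 2.9% of all genes. Id4 had 18.5 and 5.69 CPM with dTAG-13 and 5.35 and 4.27 CPM in untreated libraries, and Id3 had 95.8 and 62.8 CPM against 79.2 and 28.1 CPM.

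Corepressors that the EMT factors recruit stayed close to the middle of all genes. Of 28 listed and tested, 10 were above untreated in both numbers and 4 below it in both. Over all genes tested the shares were 27.7% and 23.9%. The median log2 fold change of the 28 was 0.051 and 0 passed the threshold. Mta3, a NuRD subunit, had 62.9 and 88.7 CPM with dTAG-13 and 58.6 and 63.3 CPM in untreated libraries, and Eed, a Polycomb subunit, 92.7 and 73.4 CPM against 85.9 and 110.2 CPM. Of 19 genes for the turnover of SNAIL, TWIST and ZEB proteins, 2 were above untreated in both numbers and 4 below it in both (median 0.030). Lats2, a Hippo pathway kinase gene, had 14.3 and 14.4 CPM with dTAG-13 and 16.6 and 18.1 CPM in untreated libraries, and Fbxl14, a ubiquitin ligase subunit for SNAI1, had 95.5 and 107.7 CPM against 77.2 and 101 CPM.

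**Figure D4:**
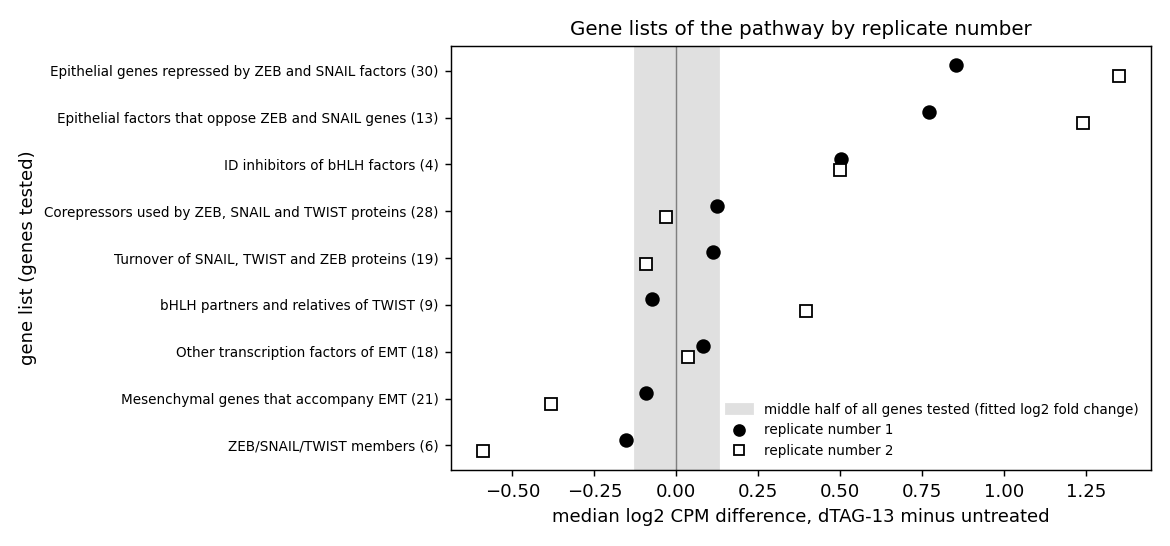
Median difference in log2 CPM, dTAG-13 minus untreated, for each gene list in replicate number 1 (filled circles) and number 2 (open squares), with the number of genes tested in parentheses. The 30 epithelial genes stand at 0.85 and 1.35, the 6 EMT factors tested at -0.15 and -0.59, and the grey band spans the quartiles of fitted log2 fold changes over all genes tested, -0.13 to 0.13.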

How the data were processed

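RNA was extracted with a column kit and DNase, and libraries were made with KAPA RNA HyperPrep and ribosomal RNA depletion, per the labels' protocols. The submitters' processing notes name fastp 0.20.1, STAR 2.7.6a, HTSeq 0.12.4, DESeq2 1.34.0, GRCm38.p6 and mm10, without roles. Neither the annotation nor the strand setting of the counting is stated in the labels. The authors deposited unnormalized counts of reads for each gene symbol, and the summary lines at the end of each table (24.1% to 35.7% of reads outside genes, 0.209% to 0.240% ambiguous) entered neither library sizes nor tests.

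Genes were kept by filterByExpr (minimum count 10, minimum total 15), scaled by TMM and tested in edgeR 4.0.16 (R 4.3.3) with the group as the only term: robust glmQLFit, then glmQLFTest, two-sided, Benjamini-Hochberg adjusted over 13602 genes. The standard error of a log2 fold change is its size over the root of F, and log2 CPM adds a prior count of 2. DESeq2 1.42.0 was an alternative. The test was tried on simulated data with known changes. Counts of replicates of a group differed beyond sampling noise (chi-square per degree of freedom 32.7 for dTAG-13 and 38.4 for untreated). Same-numbered libraries of different groups gave smaller values, 26.3 for number 1 and 24.1 for number 2. The members, gene lists and alternatives were chosen with earlier results of these data known. In each list the 2 genes of smallest p whose average log2 CPM reached 0 were named, and for each factor the 2 of most like pattern among genes averaging 1 or more. 1 gene that this rule names is not reported here. Coordinates, promoters and microRNAs are from RefSeq tables of GRCm38.p6, and transcripts from GENCODE M21 of the same build.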

Additional observations from a re-analysis of the deposited data

How the results depend on the processing

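No gene of the 7 passed the adjusted threshold under upper quartile or RLE scaling, with a minimum of 50 counts, without a filter, without mitochondrial and the 50 highest genes, with DESeq2, or without any one library. Twist2 had no adjusted p in DESeq2 with or without the block, and the minimum of 50 counts left it out. Genes called over the whole table, 0 in edgeR, came to 40 in DESeq2. Fits with the replicate block called 636 genes in edgeR and 160 in DESeq2, and in each 1 of the 7 genes was called: Zeb1, with a log2 fold change of -0.78 (adjusted p = 2.04e-06) in edgeR and -0.80 (adjusted p = 0.0262) in DESeq2. Over all its settings in edgeR without the block, the adjusted p of Zeb1 was 0.575 to 1. The numbers are shared by label only; with 2 pairs their pairing cannot be decided from the data, although deviations from the group means correlated between same-numbered libraries (0.63 across genes, which are not independent).

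Leaving out each library in turn moved the log2 fold change of Zeb2 between -0.65 and 0.10, of Zeb1 between -1.43 and -0.25, of Snai1 between -0.35 and 0.27, of Snai2 between -1.89 and 1.19, of Twist1 between -1.09 and 0.57 and of Twist2 between -2.06 and 0.24, and their median between -1.09 and 0.24. The log2 ratio of summed CPM, dTAG-13 over untreated, ran from -0.71 to 0.54 for SNAIL and from -1.17 to 0.56 for TWIST, while that of ZEB stayed below 0 (-0.59 to -0.30). In such fits the lone library is assumed to vary like the others. Scaling moved the median of all genes by less than 0.1. Depth limits Snai3 and Twist2, with 6 to 45 counts per library.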

Other observations

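The SCRATCH genes, neural relatives of the SNAIL genes, were barely counted. Scrt1 had 1 and 1 counts with dTAG-13 and 1 and 2 in untreated libraries, and Scrt2 had 3 and 4 against 5 and 5. Somite markers, of the tissue in which Twist1 and Snai1 are known to act, summed to 166 and 123 CPM with dTAG-13 and to 295 and 214 CPM in untreated libraries, and presomitic markers to 127 and 97.7 CPM against 156 and 119.9 CPM. The groups did not overlap for the somite sum, and they overlapped for the presomitic one, to which Cyp26a1 gave 62.6 and 40.0 CPM with dTAG-13 and 61.1 and 26.5 CPM in untreated libraries. Of the presomitic markers 6 of 8 were below untreated in both numbers, with a median of -0.69 on the log2 fold change scale. For somite markers 7 of 7 tested were, with a median of -1.04, and 23.9% of all genes tested were. Without the block, edgeR and DESeq2 called 0 of either. With the replicate block edgeR called 4 presomitic and 5 somite markers lower, and 1.77% of all genes. Nascent mesoderm markers summed to 287 and 153 CPM with dTAG-13 and to 187 and 121 CPM in untreated libraries, higher in replicate 1 of each group as Snai2 and Twist1 were. Much of this is Lhx1, with 163 and 44.8 CPM with dTAG-13 and 90.3 and 28.0 CPM in untreated libraries, while T, a defining marker, was higher in replicate 2 (44.5 and 69.6 CPM with dTAG-13, 53.1 and 69.7 CPM untreated). Of the 6 nascent mesoderm markers, 4 were above untreated in both numbers and 1 below it. Over all genes tested the shares were 27.7% and 23.9%. The median log2 fold change of the 6 was 0.80, and 0 were called without the block. With the block edgeR called 4 of them higher, and 2.9% of all genes. Evx1 had 21.2 and 17.5 CPM with dTAG-13 and 9.57 and 11.4 CPM in untreated libraries. Gut endoderm markers summed to 593 and 731 CPM with dTAG-13 and to 486 and 549.9 CPM in untreated libraries, with no overlap between the groups. Much of that difference is Epcam, also in the epithelial list, with 161 and 268 CPM with dTAG-13 and 94.3 and 130 CPM in untreated libraries. Cdx2 went the other way (81.6 and 128 CPM with dTAG-13, 83.4 and 181 CPM untreated), and the list's median log2 fold change was 0.35. In both numbers 6 of the 8 gut endoderm markers were above untreated and 1 below it, with the shares over all genes as above. Foxa2 had 23.4 and 28.5 CPM with dTAG-13 and 16.7 and 15.1 CPM untreated. Apela had 23.1 and 22.8 CPM against 13.9 and 14.8 CPM. Without the block 0 were called, and with it edgeR called 3 higher, and 2.9% of all genes. How far these tissues carry the levels of the 7 EMT factor genes was not tested.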
